A study of Mus musculus with 24 samples.

Results

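The expression of 40 interferon-stimulated genes was followed in regulatory T (Treg) cell subsets from young and old mice. The genes were a list of targets of type I and type II interferon, picked by gene name, and all 40 were found among the 17464 genes of the deposited table by Ensembl identifier. RNA was sequenced from sorted spleen cells of wild-type C57BL/6JRccHsd mice, 4 of 2 months (young) and 4 of 26 months (old). Resting Treg cells (rTreg, CD44-), activated Treg cells (aTreg, CD44+) and KLRG1+ Treg cells (kTreg) were taken, which gives 24 libraries in 6 groups of 4. The labels name no transgene or treatment for these mice. A replicate number was taken to stand for the same mouse in the 3 subsets of 1 age, since the sample titles number the subsets alike. The titles do not state this. Replicates within a group are separate mice, while the mice numbered alike at the 2 ages are different animals.

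Interferons are cytokines that cells release when they sense virus or other foreign nucleic acid. Type I interferons act through a receptor made of IFNAR1 and IFNAR2, whose kinases TYK2 and JAK1 activate a complex with STAT2 and IRF9 that binds the interferon-stimulated response element (ISRE); interferon-γ acts through IFNGR1 and IFNGR2, with JAK1 and JAK2, and leads to binding at the gamma-activated site (GAS). The induced genes encode sensors of viral nucleic acid, proteins that block steps of viral replication, large GTPases that attack vacuoles of intracellular microbes, and inhibitors such as USP18 that shut the pathway down. In T cells, a basal level of these transcripts is present without infection, and ISG15 and IRF7 are among the most used markers of the response.

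Depth was 15045747 to 29521942 reads on listed genes per library. The unit throughout is the normalized read count, which is the number of reads of a gene divided by the size factor of the library. Foxp3, the transcription factor that defines Treg cells, was high in every library, from 13151 to 37793, except old aTreg replicate 2 at 5079. Klrg1 was 16559 to 41561 in kTreg libraries and 0.69 to 357 in the others. In all, 5 libraries stood apart, and the counts below were repeated without them (an alternative chosen after seeing the data). The 3 libraries of young mouse 2 carried B cell and macrophage transcripts (Cd79a, of the B cell receptor, at 2108 to 5242 against at most 219 elsewhere). In young kTreg replicate 4, 4913 genes were at 0 against 419 to 2756 in the other libraries. The fifth was old aTreg replicate 2. In the 4 old rTreg libraries, transcripts of other cell types were also high, and these values stand beside the comparison of old with young rTreg. In bulk libraries, fewer cells that express a gene and less RNA of it per cell cannot be told apart.

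The sequence before the start of each gene's canonical transcript in GENCODE M39 was read from the GRCm39 genome, over 250 bases. The Oas1a window lies inside the annotated gene (chr5:121031070-121046449, minus strand), which begins farther upstream than its canonical transcript. The core of the ISRE was searched as GAAANNGAAA and the GAS as TTCNNNGAA, each on both strands, and neighboring ISRE matches may overlap. An ISRE match was found for 16 of the 40 genes (40%) against 555 of the 16540 tested genes whose start was annotated (3.36%), and a GAS match for 8 (20%) against 1106 (6.69%). Among the members that differed between groups, Usp18 and Oas2 held ISRE matches. Oas1a, Eif2ak2 and Gbp7 held only GAS matches, and Cmpk2, Slfn1 and Trim25 held neither in this window. The windows of Eif2ak2, Gbp7 and Cmpk2 lay wholly in annotated exons (250 bases each), as did 112 bases of the Trim25 window. Sequence before other annotated starts was not searched. A match is a string of letters and not a bound site. The windows of Isg15, a marker of the response, of Usp18 and Oas2, which were lower in aTreg than in rTreg, and of Oas1a, which was higher in kTreg, are shown 5′ to 3′ on the strand of the gene, without bases of annotated exons. Capitals mark the ISRE matches (Isg15, Usp18, Oas2) or the GAS match (Oas1a). In Isg15, 3 overlapping ISRE matches formed 1 run that began 50 bases before the start.
Isg15 (chr4:156285304-156285553, minus strand): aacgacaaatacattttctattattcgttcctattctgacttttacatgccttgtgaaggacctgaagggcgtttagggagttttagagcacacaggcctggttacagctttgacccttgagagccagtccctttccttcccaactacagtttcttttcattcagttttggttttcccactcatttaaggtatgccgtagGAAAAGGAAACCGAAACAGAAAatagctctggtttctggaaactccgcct
Usp18 (chr6:121222607-121222847, plus strand): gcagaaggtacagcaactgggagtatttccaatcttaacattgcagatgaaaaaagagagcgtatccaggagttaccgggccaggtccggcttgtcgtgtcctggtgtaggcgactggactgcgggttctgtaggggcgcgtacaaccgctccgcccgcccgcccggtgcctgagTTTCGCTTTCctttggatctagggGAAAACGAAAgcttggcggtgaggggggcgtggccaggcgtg
Oas2 (chr5:120887934-120888183, minus strand): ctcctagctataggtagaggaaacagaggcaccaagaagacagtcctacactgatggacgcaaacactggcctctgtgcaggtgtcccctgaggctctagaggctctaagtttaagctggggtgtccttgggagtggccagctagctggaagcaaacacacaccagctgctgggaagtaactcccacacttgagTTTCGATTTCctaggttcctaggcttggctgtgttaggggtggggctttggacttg
Oas1a (chr5:121045611-121045860, minus strand): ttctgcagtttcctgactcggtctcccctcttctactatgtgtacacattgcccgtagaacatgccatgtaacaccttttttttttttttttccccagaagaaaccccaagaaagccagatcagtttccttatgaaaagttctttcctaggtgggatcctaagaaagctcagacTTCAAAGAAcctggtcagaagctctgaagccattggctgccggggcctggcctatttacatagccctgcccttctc

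All 40 genes were expressed in these Treg cells. All passed the filter on low values (at least 10 in at least 4 libraries), which 16630 genes passed in all. Per kilobase of annotated exon and averaged over the 24 libraries, the level was highest for Slfn2 (6988), a Schlafen protein that keeps T cells quiescent, followed by the GTPase Ifi47 (3895), the transcription factor Irf1 (2725) and the GTPase Igtp (2615). It was lowest for the sensor Oas2 (22.6), Ifi44 (32.7) and the RNA sensor Ifih1 (37.7). The marker genes lay in between, Irf7 at 904 and Isg15 at 898. Levels differed within families too, and the Schlafen genes ranged from Slfn2 to Slfn5 at 149.5.

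Levels of most members were similar in the 6 groups. For 29 of the 40 genes, the highest and the lowest group mean differed by less than 2-fold, a share that was not computed over all genes. The ratio was largest for Oas2 (7.70, from 191 in young kTreg to 24.9 in old aTreg), where 1 library (young kTreg replicate 4) held 479, then for Ifi44 (4.16) and Usp18 (3.87). The smallest ratios were 1.19 for Trim30a, a restriction factor of the TRIM family, and 1.21 for Dtx3l, a ubiquitin ligase. Within groups, the SD between mice on the log2 scale had a median of 0.305 over the members and of 0.422 over all genes tested.

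**Figure D1:**
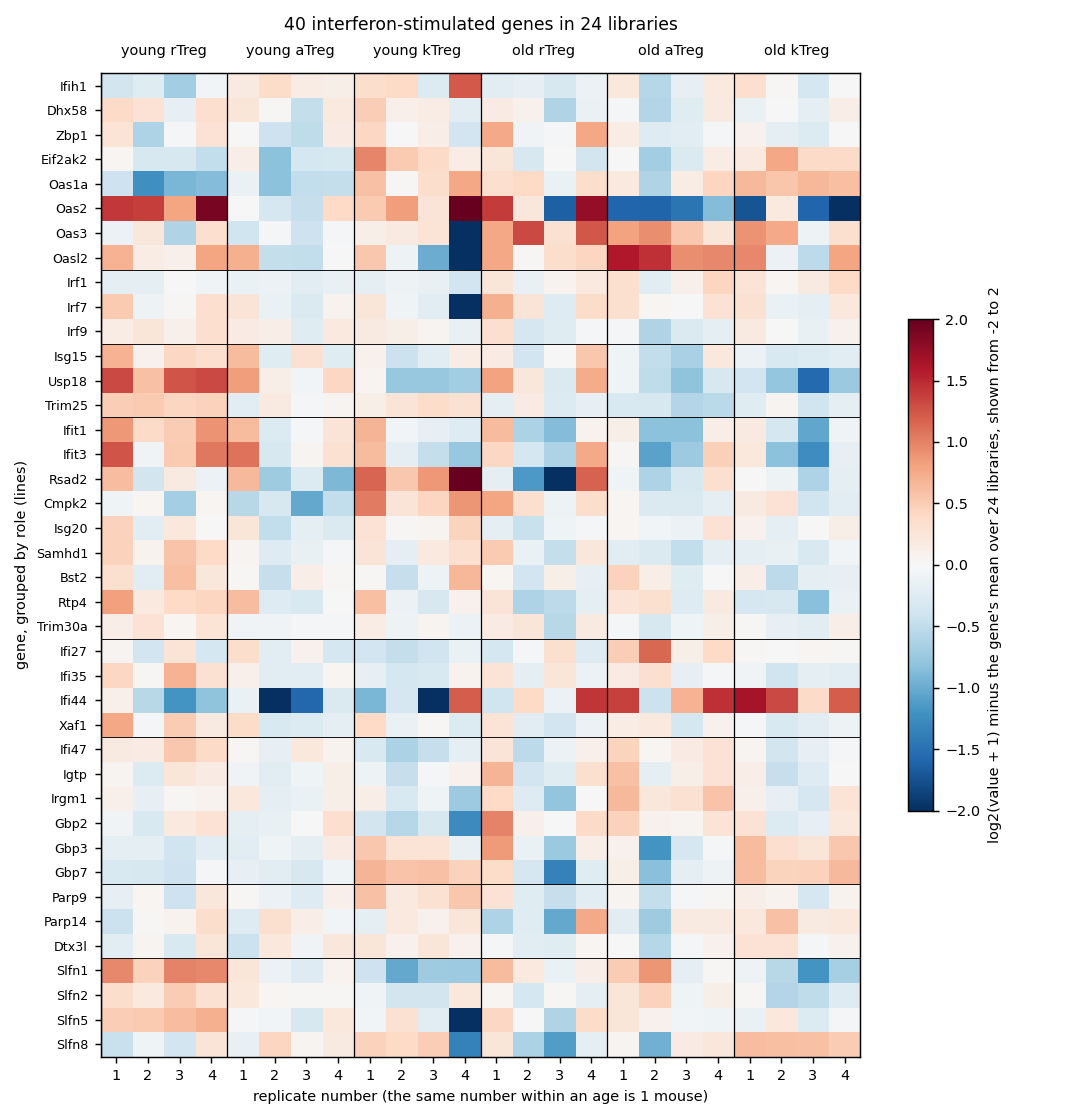
Heat map of the 40 genes (rows, grouped by role) in the 24 libraries (columns, 4 per group). Color is log2(value + 1) minus the mean of the gene over all libraries, from -2 (blue) to 2 (red); Usp18 and Slfn1 are red in young rTreg, Gbp7 and Oas1a are red in kTreg, and young kTreg replicate 4 stands apart for Oas3, Oasl2 and Irf7.

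The first question was whether the response differs between the 3 subsets. A gene was called higher or lower when its adjusted p in limma was below 0.05 over the 16630 genes and its fold change exceeded 1.5. Few members were called between kTreg and aTreg or rTreg, and they went in both directions. Of the 40 genes, 4 were higher in kTreg than in aTreg (Eif2ak2, Oas1a, Cmpk2 and Gbp7), where 4.13% of all genes tested were higher, and 2 were lower (Usp18 and Slfn1), where 3.26% were lower. Against rTreg, 3 were higher in kTreg (Eif2ak2, Oas1a and Gbp7; 9.37% of all genes) and 2 were lower (Usp18 and Slfn1; 6.09%). Between aTreg and rTreg, none was higher in aTreg (5.23% of all genes) and 2 were lower (Oas2 and Usp18; 2.78%). Since the 3 comparisons share libraries, their values are not independent of each other. The members' median log2 fold change was 0.02 for kTreg against aTreg, -0.15 for kTreg against rTreg and -0.08 for aTreg against rTreg, beside medians over all genes of -0.08, -0.01 and 0.06. Counts of genes above 0 were 21, 14 and 14 of 40. Without the 5 libraries that stood apart, 5, 6 and 2 members were called in these comparisons. Markers of other cell types moved with the subsets too. All 8 macrophage and monocyte markers were above 0 for kTreg against aTreg, with a median log2 fold change of 2.00 and 0 called, and 2 were called lower in aTreg than in rTreg. The 4 erythroid markers had a median of 1.43 for kTreg against aTreg, with 0 called. Of 5 NK cell markers, 2 were higher and 2 lower in kTreg than in aTreg. This list holds Gzma, which the authors name among the genes raised in kTreg cells, so it does not mark NK cells alone. The part of these transcripts in the differences was not tested.

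**Figure D2:**
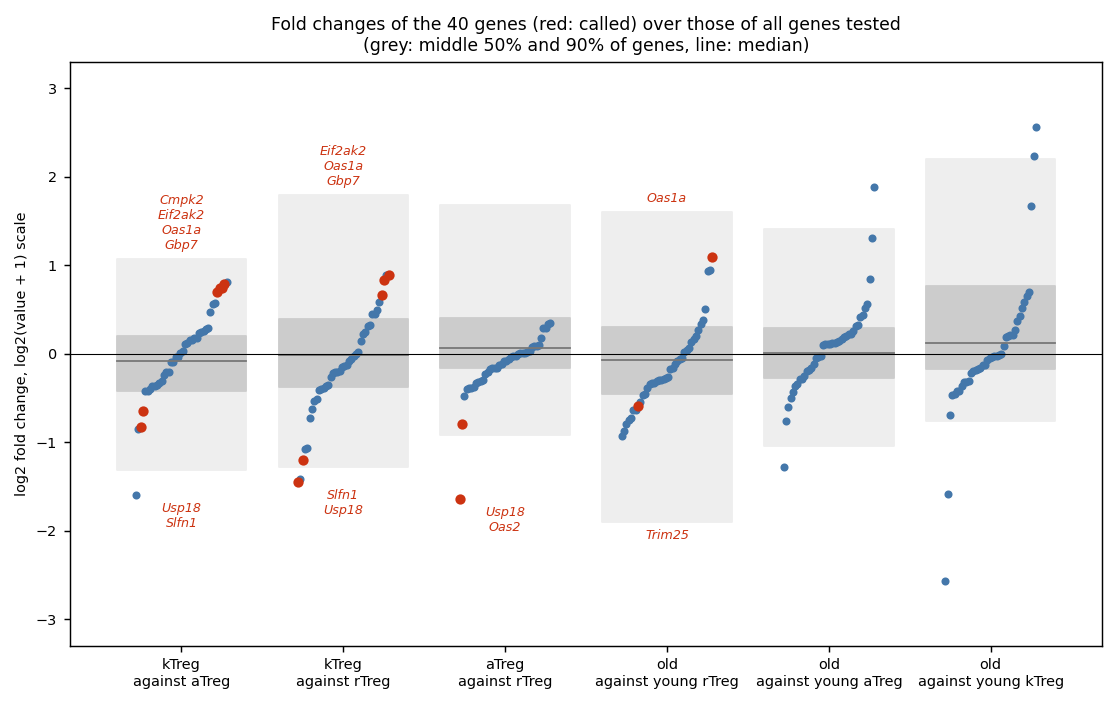
Log2 fold changes of the 40 genes (points, sorted within each of 6 comparisons on the horizontal axis; red and named where called) over the middle 50% and 90% of all 16630 genes tested (dark and light gray). The called genes number 6, 5 and 2 in the subset comparisons, 2 in old against young rTreg and 0 in the 2 other age comparisons; no point in old against young aTreg or kTreg was called.

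Among the sensors of viral RNA, Eif2ak2 and Oas1a were higher in kTreg cells. Eif2ak2 (ENSMUSG00000024079, chr17:79159972-79190012, minus strand) encodes PKR, a kinase that halts translation on double-stranded RNA. Its values were 629.8, 492, 490.4 and 439 in young rTreg libraries, 674, 349, 484 and 494 in young aTreg libraries and 1209.6, 887, 805 and 680.2 in young kTreg libraries. In old mice they were 729, 492, 618 and 478 in old rTreg libraries, 611, 380.2, 501 and 681 in old aTreg libraries and 703, 1058, 799.7 and 803 in old kTreg libraries. In both ages the 4 kTreg libraries were above the 4 aTreg libraries. Eif2ak2 was higher in kTreg than in aTreg (log2 fold change of 0.75 ± 0.16 (SE), adjusted p = 0.003; higher in 8 of 8 mice) and than in rTreg (log2 fold change of 0.66 ± 0.16 (SE), adjusted p = 0.0037; 7 of 8 mice). Without old mouse 2 the difference from rTreg was 0.57, a fold change below 1.5 (adjusted p = 0.015).

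Oas1a (ENSMUSG00000052776, chr5:121031070-121046449, minus strand) encodes an oligoadenylate synthetase that activates RNase L. Its values were 1097, 623, 779 and 799 in young rTreg libraries, 1336, 824, 1045 and 1049.7 in young aTreg libraries and 2190.3, 1489.8, 1865 and 2491 in young kTreg libraries. Old mice had 1842, 1938, 1337 and 1863 in old rTreg libraries, 1669.9, 967, 1621 and 1964 in old aTreg libraries and 2300.1, 2156, 2328 and 2226 in old kTreg libraries. Within each age, every kTreg library was above every rTreg and aTreg library. Oas1a was higher in kTreg than in aTreg (log2 fold change of 0.75 ± 0.15 (SE), adjusted p = 0.0017) and than in rTreg (log2 fold change of 0.84 ± 0.15 (SE), adjusted p = 2.1e-04), in 8 of 8 mice each. In young mice the difference from rTreg was 1.29 ± 0.21 (SE, adjusted p = 1.1e-04) and in old mice 0.38 ± 0.21 (SE, adjusted p = 0.26). The difference between the ages was not called (-0.91 ± 0.29 (SE, adjusted p = 0.1)). The near-identical paralog Oas1g was at most 58.7 in any library, and the counting may not have told the copies apart.

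Oas2 (ENSMUSG00000032690, chr5:120868398-120887933, minus strand), another synthetase of the family, was called lower in aTreg than in rTreg cells. Its values were 174, 171, 112 and 243 in young rTreg libraries, 64.6, 50.8, 46.6 and 85.7 in young aTreg libraries and 92.8, 117, 77.5 and 479 in young kTreg libraries. At 26 months the values were 172, 76.0, 20.1 and 220.3 in old rTreg libraries, 20.9, 20.7, 22.8 and 35.1 in old aTreg libraries and 18.9, 73.9, 20.9 and 9.19 in old kTreg libraries. Young aTreg libraries were all below young rTreg libraries, but old rTreg replicate 3 lay at the level of aTreg. Oas2 was lower in aTreg than in rTreg (log2 fold change of -1.64 ± 0.47 (SE), adjusted p = 0.027), in 7 of 8 mice. This call was lost in 11 of 38 alternatives, among them leaving out young rTreg replicate 4, young aTreg replicate 3, old rTreg replicate 1, old rTreg replicate 4 or old aTreg replicate 1 (adjusted p = 0.05 to 0.062), and young mouse 1, 2 or 3 or old mouse 1 or 4 (adjusted p = 0.064 to 0.11). Between kTreg and rTreg, Oas2 was not called in the main fit. It was called lower in kTreg with an unadjusted p and without young kTreg replicate 4, old rTreg replicate 3 or old kTreg replicate 2. The same call came without young mouse 4 or old mouse 3. The other 5 sensors (Ifih1, Dhx58, Zbp1, Oas3 and Oasl2) were not called in any subset comparison. Oas3 and Oasl2 were at 0.916 and 0 in young kTreg replicate 4 and at 239.9 to 908 and 265 to 1167 in the 5 other groups.

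None of the 3 transcription factors among the members was called between the subsets. Irf7 (ENSMUSG00000025498, chr7:140842619-140846398, minus strand) encodes the factor that amplifies type I interferon production. Its values were 4663, 3023, 3267 and 4094 in young rTreg libraries, 3868, 2933, 2632 and 3387 in young aTreg libraries and 3805, 3046, 2763 and 557 in young kTreg libraries. In old mice they were 5278, 3874, 2699.5 and 4148 in old rTreg libraries, 4052, 3313, 3213 and 3943 in old aTreg libraries and 3981, 2956, 2828 and 3731 in old kTreg libraries. The groups overlapped, with young kTreg replicate 4 far below the rest. The difference of kTreg was -0.37 ± 0.27 (SE, adjusted p = 0.42) from aTreg and -0.54 ± 0.27 (SE, adjusted p = 0.16) from rTreg. Irf1, which responds to interferon-γ, and Irf9, the DNA-binding partner of STAT2, had log2 fold changes between -0.18 and 0.15 in the subset comparisons.

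In the ISG15 system, Usp18 fell stepwise from rTreg to aTreg to kTreg cells. ISG15 is a ubiquitin-like protein that is joined to other proteins, and USP18 removes it and also blocks signaling at IFNAR2. The values of Usp18 (ENSMUSG00000030107, chr6:121222848-121247877, plus strand) were 3618, 2176, 3476 and 3607 in young rTreg libraries, 2595, 1572, 1399 and 1931 in young aTreg libraries and 1508, 855, 859 and 897 in young kTreg libraries. Old mice had 2535, 1700.4, 1183 and 2437 in old rTreg libraries, 1369, 1021, 826 and 1162 in old aTreg libraries and 1111, 852, 493 and 870.4 in old kTreg libraries. In each of the 8 mice the order was the same, with rTreg highest and kTreg lowest, although the libraries of neighboring subsets overlapped. Usp18 was lower in kTreg than in rTreg (log2 fold change of -1.45 ± 0.20 (SE), adjusted p = 1.0e-05) and in aTreg than in rTreg (log2 fold change of -0.80 ± 0.20 (SE), adjusted p = 0.0096), each in 8 of 8 mice. The second call was lost without young mouse 3 (adjusted p = 0.059) and without age in the model (adjusted p = 0.051). Usp18 was also lower in kTreg than in aTreg (log2 fold change of -0.65 ± 0.20 (SE), adjusted p = 0.032; 8 of 8 mice).

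The difference in Usp18 between kTreg and aTreg kept its direction in all 38 alternatives but was not called in 14 of them. Those were the fit without age, the fit without the 5 libraries that stood apart (adjusted p = 0.11 each), and the fits without young aTreg replicate 1 or 4, young kTreg replicate 2 or 3, old aTreg replicate 1 or 4, old kTreg replicate 3, young mouse 2, 3 or 4, or old mouse 2 or 4 (adjusted p = 0.053 to 0.081).

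Isg15 itself (ENSMUSG00000035692, chr4:156283883-156285303, minus strand) was not called in any comparison. Its values were 1099, 722, 908 and 860.2 in young rTreg libraries, 1061, 577, 838 and 577 in young aTreg libraries and 723, 508, 589.9 and 755 in young kTreg libraries. At 26 months the values were 761, 523, 686 and 992 in old rTreg libraries, 641, 481, 435 and 791 in old aTreg libraries and 631, 551, 564 and 580.2 in old kTreg libraries. Each group overlapped with others, and the highest value was in young rTreg replicate 1. The difference of kTreg from rTreg was -0.40 ± 0.16 (SE, adjusted p = 0.079), lower in 7 of 8 mice, and that of aTreg from rTreg was -0.30 ± 0.16 (SE, adjusted p = 0.29), lower in 8 of 8 mice. Trim25, a ubiquitin ligase that activates the sensor RIG-I, had a log2 difference of -0.40 ± 0.09 (SE, adjusted p = 0.0047) between aTreg and rTreg, a change below 1.5-fold.

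**Figure D3:**
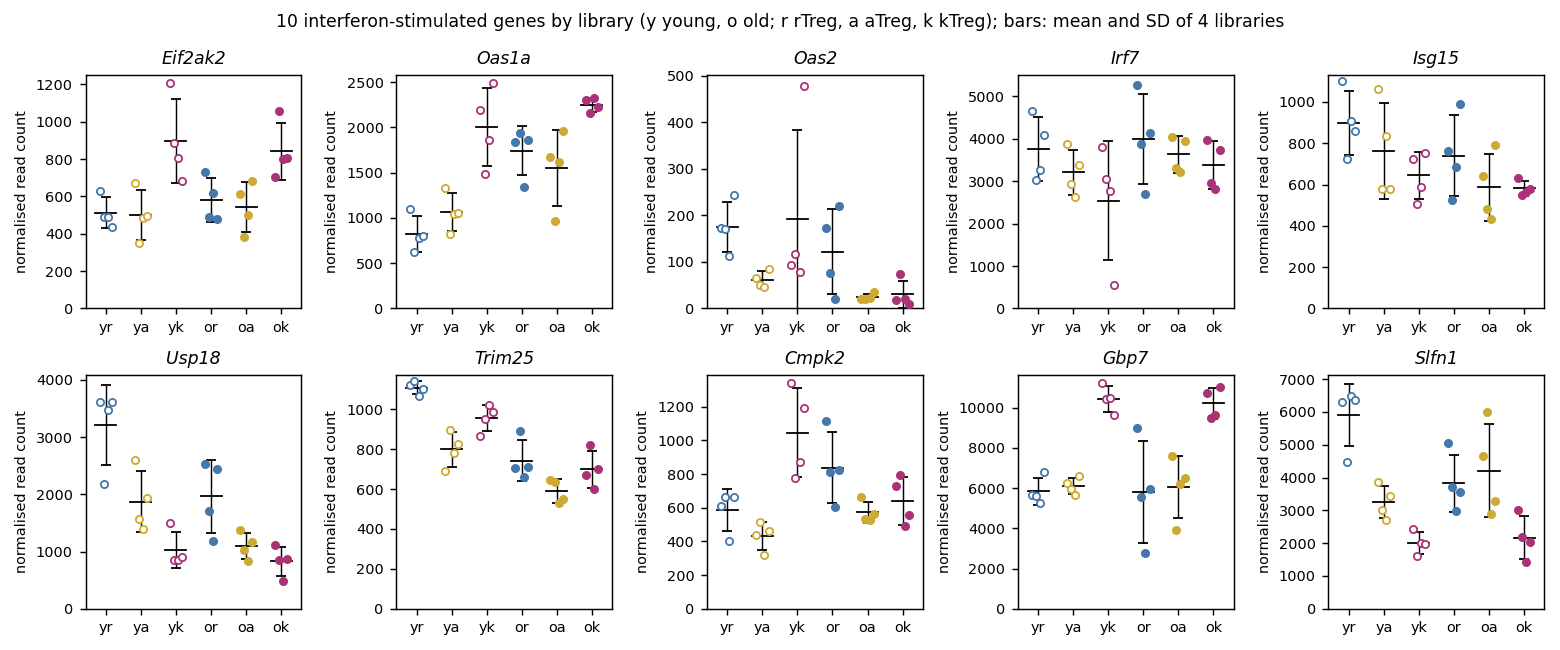
Normalized read counts (vertical axes, from 0) of 10 members in 6 groups (y young, o old; r rTreg, a aTreg, k kTreg); each circle is 1 library and bars give the mean and SD of 4 libraries. Gbp7 is at least 9491 in kTreg libraries and at most 8991 in all others, and Usp18 declines from rTreg to kTreg at both ages.

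Of the 9 antiviral effectors, Cmpk2 was the 1 that was called. Cmpk2 (ENSMUSG00000020638, chr12:26519203-26529836, plus strand) encodes a mitochondrial nucleotide kinase. It lies next to Rsad2, the gene of viperin, which makes a nucleotide analog that stops viral polymerases. The values of Cmpk2 were 610.2, 664, 405 and 663 in young rTreg libraries, 439, 518, 318 and 459 in young aTreg libraries and 1338, 777, 874 and 1195 in young kTreg libraries. In old mice they were 1114, 812, 602 and 822 in old rTreg libraries, 664, 531, 527 and 565 in old aTreg libraries and 730.4, 791, 490.3 and 555 in old kTreg libraries. In young mice all kTreg libraries were above all others, whereas in old mice the subsets overlapped. Cmpk2 was higher in kTreg than in aTreg over both ages (log2 fold change of 0.70 ± 0.16 (SE), adjusted p = 0.0049; 6 of 8 mice), with a difference of 1.26 ± 0.22 (SE, adjusted p = 9.7e-04) in young and 0.15 ± 0.22 (SE, adjusted p = 0.86) in old mice. Rsad2 had 499.5, 326, 408 and 1615 in young kTreg libraries and 32.6 to 508 in the other groups, and its difference between kTreg and aTreg was not called (0.81 ± 0.41 (SE, adjusted p = 0.23)). Ifit1, Ifit3, Isg20, Samhd1, Bst2, Rtp4 and Trim30a were not called, with log2 fold changes between kTreg and aTreg from -0.33 to 0.18. Ifit3 has a close copy, Ifit3b, at 77.0 to 744, so that its counts are uncertain.

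Of the 6 interferon-inducible GTPases, Gbp7 was the 1 called between subsets. It (ENSMUSG00000040253, chr3:142236044-142255910, plus strand) encodes a guanylate-binding protein that supports the oxidative killing of microbes. Its values were 5663, 5624, 5260.1 and 6795 in young rTreg libraries, 6258, 5958, 5634 and 6584 in young aTreg libraries and 11201, 10405, 10484 and 9649 in young kTreg libraries. Old mice had 8991, 5546, 2755 and 5931 in old rTreg libraries, 7566, 3912, 6206 and 6505 in old aTreg libraries and 10731, 9491, 9605 and 11027 in old kTreg libraries. All 8 kTreg libraries were above all 16 rTreg and aTreg libraries. Gbp7 was higher in kTreg than in aTreg (log2 fold change of 0.78 ± 0.16 (SE), adjusted p = 0.0024) and than in rTreg (log2 fold change of 0.89 ± 0.16 (SE), adjusted p = 3.2e-04), in 8 of 8 mice each, and both calls held in all 38 alternatives. Its neighbor Gbp3 differed by 0.56 ± 0.18 (SE, adjusted p = 0.046) between kTreg and aTreg, just under the fold threshold. Ifi47 was -0.39, Gbp2 -0.42, Irgm1 -0.36 and Igtp -0.21 in the same comparison, and none of the 4 was called. Members of the GBP family on chromosome 3 are similar in sequence, which may blur their counts.

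In the Schlafen family, whose members restrain T cell growth and viral translation, Slfn1 fell in kTreg cells. The values of Slfn1 (ENSMUSG00000078763, chr11:83007615-83013496, plus strand) were 6309, 4482, 6482 and 6356 in young rTreg libraries, 3863, 3003, 2719 and 3426 in young aTreg libraries and 2428, 1605, 1992 and 1973 in young kTreg libraries. At 26 months the values were 5048, 3717, 2969 and 3569.9 in old rTreg libraries, 4646, 6001, 2879.5 and 3299 in old aTreg libraries and 3017, 2203, 1412 and 2051 in old kTreg libraries. In 8 of 8 mice kTreg had the lowest value of the 3 subsets. Slfn1 was lower in kTreg than in aTreg (log2 fold change of -0.82 ± 0.16 (SE), adjusted p = 0.0016) and than in rTreg (log2 fold change of -1.20 ± 0.16 (SE), adjusted p = 9.2e-06), and both calls held in all 38 alternatives. Slfn2 differed by -0.35 ± 0.10 (SE, adjusted p = 0.016) between kTreg and rTreg, Slfn5 by -0.63 ± 0.25 (SE, adjusted p = 0.078) and Slfn8 by 0.58 ± 0.24 (SE, adjusted p = 0.09), and these 3 were not called. Slfn8 was called as higher in 5 of 38 alternatives, which were DESeq2 and the fits without young kTreg replicate 4, old rTreg replicate 1, young mouse 4 or the 5 libraries that stood apart; it was at 1039 in young kTreg replicate 4 and at 3790.0 to 4085 in old kTreg libraries. The PARP9-DTX3L group (Parp9, Parp14 and Dtx3l) had log2 fold changes of 0.31, 0.33 and 0.25 between kTreg and rTreg, and none of Ifi27, Ifi35, Ifi44 and Xaf1 was called between subsets.

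The second question was the effect of age within each subset. In rTreg cells 1 member was higher in old mice (Oas1a; 4.12% of all genes) and 1 was lower (Trim25; 1.71%). No member was called between old and young aTreg cells (2.71% of all genes in either direction) or kTreg cells (1.26%). With edgeR the counts in aTreg and kTreg were also 0, and with DESeq2 they were 1 (Ifi44, higher in old) and 2 (Oas2 and Rsad2, lower). In limma, 8 members had an unadjusted p below 0.05 in aTreg, beside 2081 of the 16630 genes tested. In kTreg there were 10 such members, beside 2580 genes. The members' median log2 fold change was -0.27 in rTreg, 0.11 in aTreg and -0.04 in kTreg, beside medians over all genes of -0.08, 0.01 and 0.12, and 13, 23 and 15 of 40 members were above 0. Log2 fold changes of the 9 antiviral effectors with age ran from -0.87 (Ifit1) to 0.51 (Cmpk2) in rTreg and from -1.58 (Rsad2) to -0.05 (Trim30a) in kTreg. Those of the 3 genes of the ISG15 system were -0.30 (Isg15), -0.75 (Usp18) and -0.59 (Trim25) in rTreg. The markers Isg15 and Irf7 were not called with age, with log2 fold changes of -0.37 and 0.19 in aTreg and -0.13 and 0.70 in kTreg.

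Oas1a rose with age in rTreg cells. Its 4 old values, from 1337 to 1938, were all above the 4 young values, from 623 to 1097 (log2 fold change of 1.10 ± 0.21 (SE), adjusted p = 0.0022), and the call held in all 29 alternatives. The difference was 0.52 ± 0.21 (SE, adjusted p = 0.24) in aTreg and 0.19 ± 0.21 (SE, adjusted p = 0.66) in kTreg cells. Trim25 (ENSMUSG00000000275, chr11:88890202-88911122, plus strand) was 1123, 1142, 1067 and 1100.1 in young rTreg and 704, 891, 658 and 713 in old rTreg libraries. It was 688, 898, 779.7 and 827 in young aTreg and 645, 635, 530.4 and 548 in old aTreg libraries. In kTreg it was 866, 950.5, 1022 and 984 in young and 669, 822, 603 and 701 in old libraries. In each subset the old and the young libraries did not overlap. Trim25 was lower in old rTreg (log2 fold change of -0.59 ± 0.13 (SE), adjusted p = 0.0062), while the difference was -0.44 ± 0.13 (SE, adjusted p = 0.069) in aTreg and -0.46 ± 0.13 (SE, adjusted p = 0.077) in kTreg cells. The fold change in rTreg was only just beyond 1.5: it was not called in 13 of 29 alternatives, with log2 fold changes from -0.59 to -0.53 there; these were DESeq2, the fit of only the groups compared and the fits without young rTreg replicate 1 or 2 or old rTreg replicate 1, 3 or 4, without young mouse 1 or 2 or old mouse 1, 3 or 4, or without the 5 libraries that stood apart.

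Markers of other cell types moved with age in rTreg libraries. The summed level of 8 macrophage and monocyte markers was 10605 to 27634 in old rTreg and 619 to 9027 in young rTreg libraries, and that of 4 plasma cell markers was 8579 to 14250 against 4362 to 5739. Most of the macrophage and monocyte sum in old rTreg libraries was Lyz2, the lysozyme of myeloid cells. Lyz2 was 16258, 9633, 25153 and 9381 in old and 515, 6548, 1136 and 801 in young rTreg libraries. Jchain, of plasma cells, was 3280.4, 4212, 9158 and 2941 in old and 50.3, 1025, 170.1 and 97.4 in young libraries. Of the 8 macrophage and monocyte markers, 6 were above 0 and 2 below 0 for old against young rTreg, and none was called. Their mean log2 level overlapped between the ages, at 6.31 to 7.59 in old and 3.85 to 8.58 in young rTreg libraries. Of the 4 plasma cell markers 1 was higher in old rTreg. The sum of 5 NK cell markers was 1674 to 2989.7 in old and 493 to 956 in young rTreg libraries, and that of 3 platelet markers was 451 to 981 against 42.2 to 73.8, with 1 marker of each called higher. Pax5, a B cell transcription factor, was 0 to 2.08 in the 4 old rTreg libraries. The part of these cells in the differences of Oas1a and Trim25 was not tested. Without the 5 libraries that stood apart, 6 members were called between old and young rTreg, 2 higher (Oas1a and Oas3) and 4 lower (Usp18, Rtp4, Xaf1 and Slfn1), and 1 each in aTreg (Oas1a, higher) and kTreg (Ifi44, higher). The count over all 16630 genes also rose in rTreg, from 970 to 2008.

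The age effect of Cmpk2 differed between kTreg and rTreg cells. From young to old, its mean went from 585 ± 123 to 837 ± 210 in rTreg and from 1046 ± 264 to 642 ± 142 in kTreg cells (SD, n = 4 each). The log2 fold change with age was 0.51 ± 0.22 (SE, adjusted p = 0.18) in rTreg and -0.70 ± 0.22 (SE, adjusted p = 0.13) in kTreg cells, and neither was called alone. The difference between them was -1.21 ± 0.32 (SE, adjusted p = 0.039), the 1 member called in this test, where 3.02% of all genes were called. It was not called in 16 of 37 alternatives (adjusted p = 0.051 to 0.14), which were the fit of only these groups and the fits without young rTreg replicate 1, 3 or 4, young kTreg replicate 1, old rTreg replicate 1 or 4, old kTreg replicate 3 or 4, young mouse 1, 3 or 4, or old mouse 1, 2, 3 or 4. No member was called for a different age effect in kTreg and aTreg (0.156% of all genes) or in aTreg and rTreg (1.56%), and edgeR and DESeq2 gave 0 for both. In limma, 2 members had an unadjusted p below 0.05 for kTreg and aTreg, beside 1563 of the 16630 genes tested. For aTreg and rTreg there were 8 such members, beside 2634 genes.

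Mice differed among themselves. In each library, the deviation of every member from the mean of its group was taken on the log2 scale, a description added after seeing the values and carrying no test. The median deviation was positive in the 3 libraries of mouse 1 at each age (0.0851 to 0.372) and of old mouse 4 (0.0691 to 0.128), and in the rTreg and aTreg libraries of young mouse 4 (0.117 and 0.0858). It was negative in the 3 libraries of mouse 2 at each age (-0.215 to -0.0309) and of old mouse 3 (-0.365 to -0.119), and in the rTreg and aTreg libraries of young mouse 3 (-0.0513 and -0.113). Young kTreg replicates 3 and 4 lay at 0.0019 and -0.0384. Medians over all genes were between -0.0369 and 0.0994, apart from young kTreg replicate 4 at -0.251.

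Old mouse 1 held the highest value of its group for 24 of 40 members in rTreg, 17 in aTreg and 24 in kTreg cells, while 14.9% to 26.5% of all genes were highest there. Old mouse 3 held the lowest value for 25, 17 and 24 members, while 32.4%, 22.9% and 22.8% of all genes were lowest there. Ifit3, an antiviral protein with tetratricopeptide repeats, illustrates the order. It was 1890.3, 754, 1143 and 1639 in young rTreg, 1690.0, 636, 819 and 973 in young aTreg and 1228, 702, 567 and 467 in young kTreg libraries. In old mice it was 1050.4, 623, 515 and 1337 in rTreg, 805, 376, 480.1 and 1105 in aTreg and 921, 446, 332 and 708 in kTreg libraries. Mouse 1 or mouse 4 was highest and mouse 2, 3 or 4 lowest in each group. The 40 genes share regulators and are not independent observations of a mouse.

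**Figure D4:**
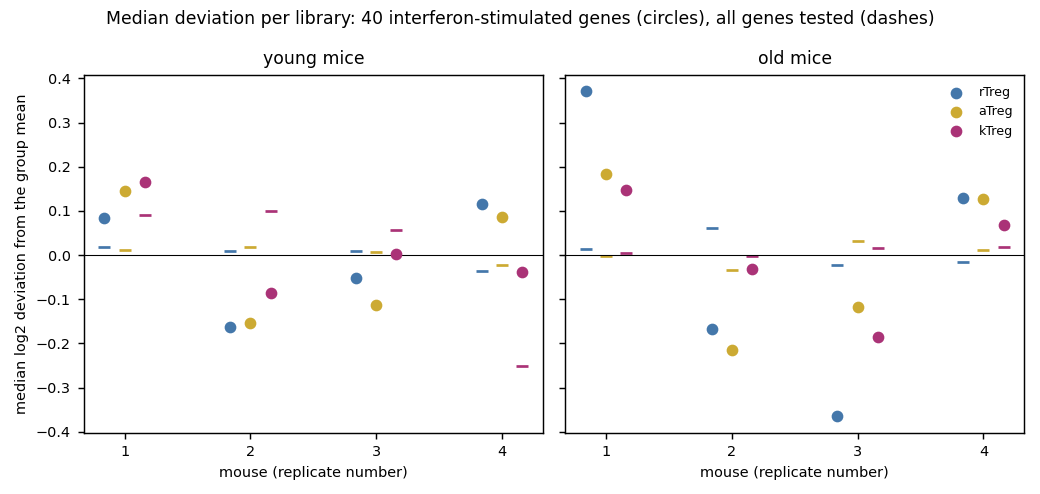
Median log2 deviation of the 40 genes from their group mean (vertical axis; circles) by mouse (horizontal axis) in young and old mice, with the median over all genes tested as dashes. Circles of mouse 1 lie above 0 and those of mouse 2 lie below 0 in all 3 subsets at both ages.

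Some genes that carry the interferon signal were also called between subsets. Of 8 receptors and kinases, 1 was higher in kTreg than in aTreg, where 4.13% of all genes were higher. Against rTreg, 2 were higher in kTreg (9.37% of all genes) and 1 was lower (6.09%). Tyk2, the kinase bound to IFNAR1, was 3602 to 5282 in kTreg, 1683 to 4416 in aTreg and 1615 to 3433 in rTreg libraries. It was higher in kTreg than in rTreg (log2 fold change of 1.00 ± 0.15 (SE), adjusted p = 2.6e-05) and than in aTreg (log2 fold change of 0.71 ± 0.15 (SE), adjusted p = 0.0024), in 8 of 8 mice each. Ifngr2, the signaling chain of the interferon-γ receptor, was lower in kTreg (log2 fold change of -0.81 ± 0.14 (SE), adjusted p = 2.4e-04) and in aTreg (log2 fold change of -0.75 ± 0.14 (SE), adjusted p = 0.0013) than in rTreg, and Jak2 was higher in kTreg than in rTreg (log2 fold change of 0.72 ± 0.25 (SE), adjusted p = 0.042). Ifnar1 and Ifnar2 were not called in a subset comparison, and their values were 1618 to 5512 and 1078 to 4118 over all libraries. Among 6 transcription factors of the pathway, Irf5 was higher in kTreg than in aTreg (log2 fold change of 1.02 ± 0.25 (SE), adjusted p = 0.0081) and than in rTreg (log2 fold change of 1.26 ± 0.25 (SE), adjusted p = 5.8e-04), whereas Stat2 was not called (0.08 between kTreg and rTreg). Young mouse 2, whose libraries carried B cell and macrophage transcripts, had the highest Irf5 of the young mice in each subset (1546, 1467 and 3086 in rTreg, aTreg and kTreg), and the part of those cells was not tested.

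Socs3, which blocks signaling of gp130 cytokines and interferon receptors, was the 1 of 5 inhibitors called between kTreg and another subset. It was lower in kTreg than in aTreg (log2 fold change of -0.59 ± 0.16 (SE), adjusted p = 0.021, where 3.26% of all genes were lower) and than in rTreg (log2 fold change of -1.20 ± 0.16 (SE), adjusted p = 1.2e-05, where 6.09% were lower). Between aTreg and rTreg the difference over both ages (log2 fold change of -0.61 ± 0.16 (SE), adjusted p = 0.017; lower in 5 of 8 mice) was 0.03 ± 0.23 (SE, adjusted p = 0.99) in young and -1.26 ± 0.23 (SE, adjusted p = 0.0013) in old mice, and the age effect differed between these subsets (-1.29 ± 0.33 (SE, adjusted p = 0.048)). With age, Socs3 rose in rTreg (log2 fold change of 0.96 ± 0.23 (SE), adjusted p = 0.014), where the 4 old libraries, 8769, 7061, 5447 and 8399, were all above the young ones, 3516, 4842, 2509 and 4589. Socs1, the main inhibitor of interferon-γ signaling, fell with age in rTreg (log2 fold change of -0.59 ± 0.17 (SE), adjusted p = 0.041), and its age effect differed between kTreg and rTreg (log2 fold change of 1.16 ± 0.24 (SE), adjusted p = 0.0089). Ifngr2 fell with age in rTreg (log2 fold change of -0.84 ± 0.20 (SE), adjusted p = 0.014) and aTreg (log2 fold change of -0.81 ± 0.20 (SE), adjusted p = 0.028), and Ifngr1 rose in aTreg (log2 fold change of 0.88 ± 0.15 (SE), adjusted p = 0.0012) and kTreg (log2 fold change of 0.79 ± 0.15 (SE), adjusted p = 0.0075). In old aTreg cells the chains of the interferon-γ receptor thus moved in opposite directions.

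**Figure D5:**
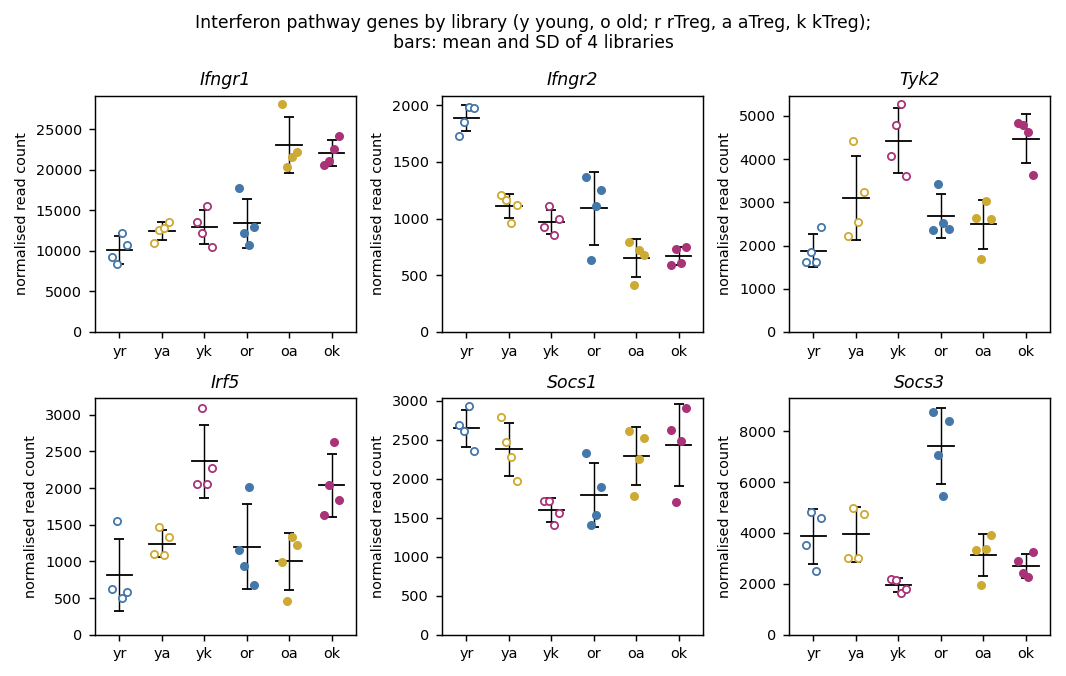
Normalized read counts (vertical axes, from 0) of 6 pathway genes in the 6 groups (y young, o old; r rTreg, a aTreg, k kTreg); circles are libraries and bars give the mean and SD of 4 libraries. Old aTreg and kTreg libraries lie above all others for Ifngr1, and old rTreg libraries lie above all others for Socs3.

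Of the ligands, Ifng was the 1 of 7 in the table. Ifng was 18.1 to 321 in rTreg, 152 to 652 in aTreg and 0 to 351 in kTreg libraries and was not called in any comparison. Its log2 fold change was 2.23 for aTreg against rTreg, -1.97 for kTreg against aTreg and 0.26 for kTreg against rTreg. With age it was 2.21 in rTreg, 0.65 in aTreg and 2.78 in kTreg cells. Of 9 upstream sensors and adaptors tested, Cgas, the sensor of cytosolic DNA, was higher in kTreg than in rTreg (log2 fold change of 1.49 ± 0.31 (SE), adjusted p = 0.0012), with 251 to 421 in kTreg and 28.4 to 227 in rTreg libraries. In that comparison 9.37% of all genes were higher.

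A second list of 56 interferon-stimulated genes outside the 40 was read in the same way, with 55 tested. Between kTreg and aTreg, where 4.13% of all genes were higher and 3.26% lower, 2 of the 55 were higher (Zc3hav1, the antiviral zinc finger protein, 0.66 ± 0.08 (SE, adjusted p = 1.8e-05), and Ifi209, 0.65 ± 0.14 (SE, adjusted p = 0.0026)) and 2 were lower (Ms4a4c, -1.55 ± 0.23 (SE, adjusted p = 1.1e-04), and Ifit1bl1, -1.17 ± 0.35 (SE, adjusted p = 0.032)). Between kTreg and rTreg, 2 were higher (9.37% of all genes) and 5 lower (6.09%), led by Ms4a4c (-1.99 ± 0.23 (SE, adjusted p = 1.2e-06)). The Ms4a4c difference was -3.05 ± 0.33 (SE, adjusted p = 6.2e-07) in young and -0.93 ± 0.33 (SE, adjusted p = 0.072) in old mice, and the age effect differed between kTreg and rTreg (2.12 ± 0.46 (SE, adjusted p = 0.011)). Between aTreg and rTreg none was higher (5.23% of all genes) and 2 were lower (Ifitm1 and Ifi27l2a; 2.78%). Ifitm1, a membrane protein that blocks viral entry, had the largest age difference. It was 31.8, 70.9, 26.4 and 27.1 in young rTreg and 889, 2564, 3314 and 1758 in old rTreg libraries. In aTreg it was 20.1, 37.9, 3.22 and 9.53 in young and 281, 133, 288 and 113 in old libraries. In kTreg it was 15.7, 53.5, 3.14 and 0 in young and 129.9, 438, 54.3 and 53.8 in old libraries. Old and young libraries did not overlap in any subset, and the log2 fold change was 5.70 ± 0.93 (SE, adjusted p = 4.7e-04) in rTreg, 3.77 ± 0.93 (SE, adjusted p = 0.025) in aTreg and 3.87 ± 0.93 (SE, adjusted p = 0.038) in kTreg cells. Ifitm2 also rose with age in rTreg (log2 fold change of 2.62 ± 0.56 (SE), adjusted p = 0.0056) and aTreg (log2 fold change of 3.03 ± 0.56 (SE), adjusted p = 0.0027). In old rTreg libraries Ifitm1 moved with the myeloid, plasma cell, NK cell and platelet transcripts given above, while in aTreg the macrophage and monocyte markers summed to 252 to 404 in old and 97.9 to 3144 in young libraries. Jchain also rose with age in aTreg (log2 fold change of 5.82 ± 1.46 (SE), adjusted p = 0.027) and kTreg (log2 fold change of 6.36 ± 1.46 (SE), adjusted p = 0.028). The sum of 3 platelet markers was 55.4 to 130.2 in old and 23.4 to 64.6 in young aTreg libraries, and 101 to 457 in old and 0 to 58.8 in young kTreg libraries. The part of these transcripts in the rise of Ifitm1 was not tested.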

How the data were processed

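RNA of 24 sorted Treg libraries (3 subsets, 2 ages, 4 mice each) was converted with SMART-Seq V4, which keeps no strand, and read as 150-base pairs. The authors aligned reads to GRCm39 with HISAT2 (version 2.2.1), sorted them with SAMtools (1.13), counted them per gene with HTSeq (1.99.2) and used DESeq2 (1.44.0). The deposited signal is each gene's read count divided by the size factor of its library; 100% of values gave whole reads within 0.001 when multiplied back. The lowest sum of a gene over all libraries was 100 reads, so genes below that are not listed. Names were matched by Ensembl identifier to GENCODE M39 for 17353 of 17464 genes.

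Values were tested as log2(value + 1) with limma (3.58.1; R 4.3.3) with a mean-variance trend in 1 model of 6 groups, over 16630 genes with at least 10 in at least 4 libraries. Fold changes on this scale understate those of low genes. A gene was called when it changed more than 1.5-fold and its p, adjusted by Benjamini-Hochberg over the tested genes, was under 0.05. The alternatives were other pseudocounts, filters and scalings, edgeR (4.0.16) and DESeq2 (1.42.0) on the recovered reads, other models and fits without a library or mouse. Calls of single genes were followed in them for the members only. Members called between subsets or ages, Isg15 and Irf7 were given in every library; of the pathway lists, called genes with the smallest p and regulators were named. The members and lists were chosen with earlier results of these data known.

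Subsets with 1 replicate number were taken to come from the same mouse, which the sample titles do not state. Median correlations of deviations from the group means were 0.0257 to 0.262 for the same replicate number. The correlation estimated for the replicate block was 0.062. On simulated data for kTreg against aTreg (16630 genes, 200 changed), 69% of 2-fold and 86% of 3-fold changes were called, and 6 unchanged genes; for old against young rTreg (same sizes), 46% and 75%, and 2 genes. Upstream windows and motifs were read with Python (3.11.15) and pandas (2.3.3).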

Additional observations from a re-analysis of the deposited data

Results flagged for a closer look

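In the 60 groups tested (10 genes in 6 groups of 4 libraries), 6 held a library whose gap to its nearest neighbor exceeded Dixon's 95% limit, as a share of the range of its group, which chance passes in about 1 in 20 groups. In old rTreg, replicate 3 was lowest for Oas1a at 1337 (gap 0.864 of the range) against 1842 to 1938 in the others. In young kTreg, replicate 4 was lowest for Irf7 at 557 (0.833); that library also had 4913 genes at 0. Replicate 2 of young rTreg was lowest for Usp18 at 2176 (0.921) and for Slfn1 at 4482 (0.927); it belongs to the mouse whose libraries carried B cell transcripts. Replicate 1 of young kTreg was highest for Usp18 at 1508 (0.915). Replicate 3 of young rTreg was lowest for Cmpk2 at 405 (0.831). The role of these libraries' other transcripts in the values was not tested.

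The age effect on Cmpk2 differed between kTreg and rTreg by -1.21 on the log2 scale in the limma test of the difference (adjusted p = 0.039). Its mean was higher in old than in young rTreg and lower in old than in young kTreg libraries, and neither age difference was called alone.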

How the results depend on the processing

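Directions held for all 16 calls of members in every alternative run; 10 of the 16 also stayed called throughout, and the losses of the others are given with the results. Counts of members called changed as follows, with the cause not tested. Without the fold threshold they were 10, 10 and 4 for kTreg against aTreg, kTreg against rTreg and aTreg against rTreg. With an unadjusted p they were 9 for kTreg against rTreg, 6, 2 and 7 for age in rTreg, aTreg and kTreg, and 2, 5 and 5 for the difference of age effects between kTreg and aTreg, kTreg and rTreg, and aTreg and rTreg. Without age in the model, 0 remained for aTreg against rTreg. Fitted on only the groups compared, age in rTreg gave 1, age in aTreg 2 and the kTreg and rTreg difference 0. With DESeq2, age gave 1 in aTreg and 2 in kTreg, and the kTreg and rTreg difference 2. Without the 5 libraries that stood apart (chosen after seeing the data), age gave 6, 1 and 1 in rTreg, aTreg and kTreg, and the kTreg and rTreg difference 2. Leaving out 1 library or mouse gave 5 to 7, 4 to 7 and 0 to 2 in the subset comparisons, 1 to 4, 0 to 1 and 0 to 1 for age, and 0 to 1 for the kTreg and rTreg difference. The counts of 4 and of 1 came from leaving out old mouse 1 (rTreg), young mouse 4 (aTreg), and old kTreg replicate 2 or old mouse 2 (kTreg). With the mouse as a replicate block, counts were 6, 5 and 2 between subsets, 2, 0 and 0 with age, and 0, 1 and 0 for the differences, and no call of a member changed.

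Over all genes, 209 were called for age in kTreg, against 109 with edgeR, 426 with DESeq2, 57 on only the groups compared and 1890 with an unadjusted p. For age in aTreg 451 became 700 with DESeq2, 767 on only the groups and 1355 unadjusted, and in rTreg 970 became 478 on only the groups, 2506 unadjusted and 2008 without the 5 libraries. Differences of age effects went from 26 to 134 with DESeq2, 14 with equal totals, 16 on only the groups, 1253 unadjusted and 9 without the 5 libraries (kTreg and aTreg), from 503 to 848, 287, 2497 and 821 with DESeq2, on only the groups, unadjusted and without the 5 libraries (kTreg and rTreg), and from 259 to 623, 2133 and 421 with DESeq2, unadjusted and without the 5 libraries (aTreg and rTreg). In subset comparisons, 1229 became 2083 unadjusted and 2005 without the fold threshold (kTreg and aTreg), and 1332 became 2307 unadjusted and 833 without age (aTreg and rTreg).

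With 4 mice a group, changes near 2-fold were often missed in simulated data, so that a member without a call is not shown to be equal. Reads of overlapping or antisense genes cannot be told apart, since strand was not kept. Whether reads of similar copies (Oas1a and Oas1g, Ifit3 and Ifit3b, the Gbp and Trim30 families) were counted for the right copy was not tested.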

Other observations

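The 40 genes lie on several chromosomes, with 12 on chromosome 11, 4 each on chromosomes 3, 5 and 16, and 3 each on chromosomes 2, 7 and 12. By group, the highest mean was in young rTreg for 17 genes, in young kTreg for 9, in old kTreg for 6, in old rTreg for 4, in old aTreg for 4 and in young aTreg for 0. The shares over all genes were not computed.

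Ifi44, a protein induced by type I interferon, had the second largest ratio of group means without being called. It was 139, 27.4, 50.6 and 125 in young aTreg and 394, 114, 248 and 424 in old aTreg libraries. In kTreg it was 81.1, 121, 35.6 and 356 in young and 483, 384, 199.9 and 354 in old libraries. The groups overlapped at both comparisons, with log2 fold changes of 1.88 ± 0.61 (SE, adjusted p = 0.12) and 1.67 ± 0.61 (SE, adjusted p = 0.2) in limma. Rsad2 and Cmpk2 are neighbors on chromosome 12, and young kTreg replicate 4 was high for both, at 1615 and 1195, while Oasl2 and Oas3 were at 0 and 0.916 there.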
